A study of Rattus norvegicus with 6 samples.

Results

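Transcripts of 35 listed enzymes, regulators and transporters of glycolysis, the pentose phosphate pathway and pyruvate handling were examined in RBL-2H3, a mast cell model derived from a rat basophilic leukaemia. A gene was included where the array annotation gave a probe set that symbol alone, and the probe set with the highest mean over the 6 arrays stood for the gene. This gave 34 of the 35 genes, out of 14506 named genes on the array; Pgd had no such probe set. All cells overexpressed wild-type Dectin-1, a receptor for beta-glucans, in a stably expressing line, and were grown in serum-supplemented Dulbecco's modified Eagle's medium. The 3 groups had 2 arrays each and were labelled as unstimulated control cells, cells given curdlan, a particulate beta-glucan, and cells pretreated with R406, an inhibitor of the kinase Syk, before curdlan. No group received R406 without curdlan, so an effect of R406 on unstimulated cells cannot be told apart from a block of the curdlan response. Doses, times, the glucose content of the medium, and whether the line is 1 clone are not stated in the labels.

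Glycolysis splits glucose into pyruvate in the cytosol, and its flux is set mainly at hexokinase, at phosphofructokinase and at the uptake of glucose. Phosphofructokinase is switched on by fructose 2,6-bisphosphate, a signalling sugar that the PFKFB enzymes make and degrade and that TIGAR also degrades. Pyruvate is either reduced to lactate and exported or taken into mitochondria, where pyruvate dehydrogenase feeds it into the tricarboxylic acid cycle. Activated mast cells are known to draw on glycolysis for degranulation and cytokine production.

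The values are log2 signals as normalized by the authors, and a change is the difference between 2 group means, with its standard error (SE) from a model over all arrays. A gene was taken to have risen or fallen where its limma p, adjusted by Benjamini-Hochberg over all 29214 probe sets, was under 0.05. Array medians lay between 7.204 and 7.241, and arrays correlated at 0.9975 to 0.9981 within groups and at 0.9939 to 0.9967 between groups. Mast cell identity was visible on every array: 11 of 13 measured mast cell markers lay above the median probe set, with mean control signals of 12.81 for Fcer1a, 13.51 for Ms4a2 and 12.71 for Kit, while the tryptase genes Tpsab1 and Tpsb2 lay below it at 6.20 and 6.39. The mean signal over these markers was 11.77 to 11.78 on control, 11.76 on both curdlan and 11.74 to 11.75 on R406 plus curdlan arrays. The corresponding ranges were 6.66 to 6.70, 6.65 to 6.66 and 6.61 for 14 macrophage and neutrophil genes, 6.20 to 6.24, 6.09 to 6.20 and 6.17 to 6.19 for 8 lymphocyte genes, and 6.66 to 6.74, 6.64 to 6.71 and 6.63 for 10 fibroblast and epithelial genes. Above the median probe set lay 2 of the macrophage and neutrophil, 2 of the lymphocyte and 4 of the fibroblast and epithelial genes. Of all those markers 1 passed a test, the integrin gene Itgam. Its mean signals were 10.44 in control, 10.77 with curdlan and 10.41 under R406 plus curdlan. It fell by 0.36 ± 0.0661 under R406 relative to curdlan alone (adjusted p = 0.0408). The part of other cells in the results was not tested. The labels do not say whether arrays came from separate cultures, so the spread behind the p-values may be technical.

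The study set curdlan against control to find genes induced through Dectin-1, and R406 plus curdlan against curdlan to ask which of them need Syk. Few transcripts of these pathways passed the threshold, and their number depended on the setting. With 2 arrays a group, not passing does not show that a transcript was unchanged. With curdlan 1 of the 34 genes rose, Pfkfb3, and 0 fell, a share of 2.94% beside 1.59% of all probe sets called in that comparison (1.04% higher and 0.551% lower). At an unadjusted limma p under 0.05 there were 6 genes with curdlan, 17.6% beside 14.4% of all probe sets: Pfkfb3, Tigar and Slc16a1 with changes above 0, and Hk2, Slc2a1 and Pfkm with changes below 0. Between R406 plus curdlan and curdlan alone 1 gene was higher, Pfkfb1, and 4 were lower, Hk2, Pfkfb3, Tigar and Slc16a1. That is 14.7% of the genes beside 7.25% of all probe sets (4.02% higher and 3.23% lower). Between R406 plus curdlan and control 1 was higher, Pfkfb1, and 2 were lower, Hk2 and Pfkfb3, or 8.82% beside 2.23% of all probe sets (1.44% higher and 0.791% lower). In these comparisons with R406, 10 and 11 of the 34 genes had an unadjusted limma p under 0.05. Those are 29.4% and 32.4%, beside 22% and 20.4% of all probe sets. The 3 comparisons share arrays in pairs, so their counts are not independent of each other. Over the 14506 named genes alone, the shares called were 2.13%, 9.18% and 3.02% in the same order. The 34 genes were chosen with earlier results of these data known, so these shares do not test them as a group. Altogether 5 genes were called in some comparison and 29 in none.

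**Figure D1:**
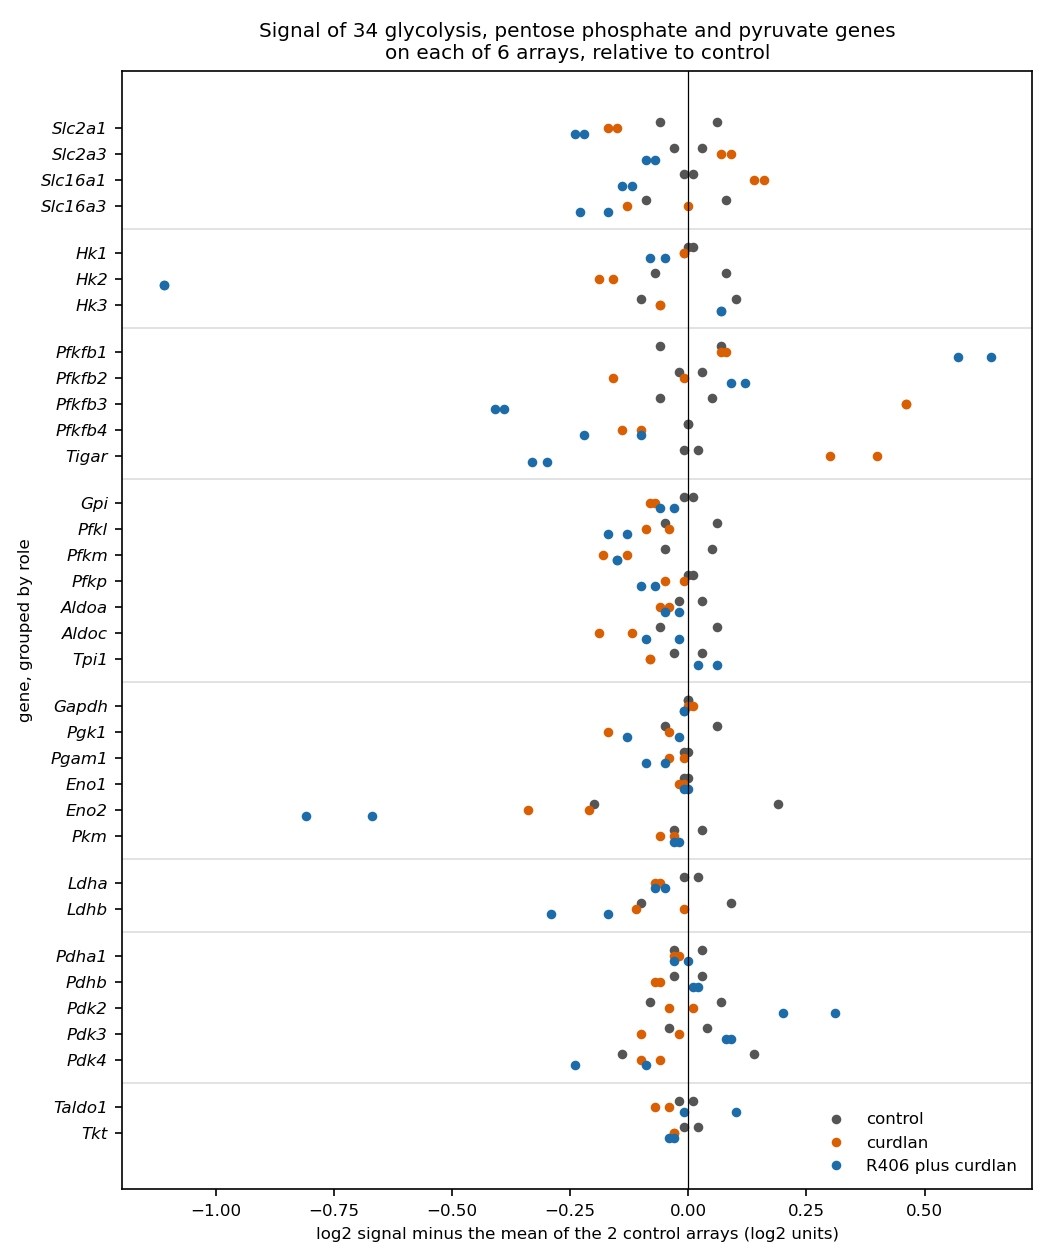
Each point is 1 array, plotted as its log2 signal minus the mean of the 2 control arrays (x axis) for each of 34 genes grouped by role (y axis), with control in grey, curdlan in orange and R406 plus curdlan in blue. Hk2, Pfkfb3, Tigar, Pfkfb1 and Eno2 stand away from 0 in at least 1 group, while Gapdh and Eno1 lie within 0.02 of it on every array.

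Hexokinases trap glucose in the cell by phosphorylation. Hk2 (probe set 10863430), the inducible hexokinase that docks on mitochondria, had log2 signals of 10.30 and 10.45 on the control arrays, 10.18 and 10.21 on the curdlan arrays, and 9.26 on both R406 plus curdlan arrays. The R406 plus curdlan arrays lay far below all others, and the curdlan arrays lay slightly below the controls. Hk2 thus fell by 0.93 ± 0.0645 under R406 relative to curdlan alone, a 1.91-fold difference (adjusted p = 0.00362), and by 1.11 ± 0.0645 relative to control, a 2.16-fold difference (adjusted p = 0.00681). Its change with curdlan was -0.18 ± 0.0645 (adjusted p = 0.306), with the opposite sign to that of Pfkfb3. The difference from control had an adjusted p of 0.0587 without control replicate 2, and of 0.0926 and 0.0949 without R406 plus curdlan replicates 1 and 2.

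The other hexokinase genes did not pass in any comparison. Hk1, the broadly expressed form, had signals of 11.31 and 11.32 in control, 11.30 on both curdlan and 11.26 and 11.23 on R406 plus curdlan arrays. Its difference between R406 plus curdlan and curdlan alone was -0.06, with a 95% interval of -0.17 to 0.05, which does not meet the Hk2 interval of -1.10 to -0.77. The difference between the 2 genes was not itself tested. Hk3, a form of myeloid cells, lay below the array median at 6.32 to 6.52 over all arrays.

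Among the 5 genes of enzymes that set fructose 2,6-bisphosphate, a grouping made here and not tested, 1 was higher and 2 were lower between R406 plus curdlan and curdlan alone, beside 7.25% of all probe sets called. Pfkfb3 (probe set 10796149) encodes the isoform with the highest kinase over phosphatase activity, which raises fructose 2,6-bisphosphate. It had signals of 9.85 and 9.74 in control, 10.26 on both curdlan arrays and 9.39 and 9.41 on R406 plus curdlan arrays. Curdlan arrays were highest and R406 plus curdlan arrays lowest, with no overlap between any of the groups. Such separation was common: curdlan arrays lay wholly above control for 19.2% of all probe sets. R406 plus curdlan arrays lay wholly below curdlan for 25.6% and wholly below control for 27.8%. The share with all 3 groups apart in this order was not counted. Pfkfb3 rose 1.38-fold with curdlan, by 0.46 ± 0.0553 (adjusted p = 0.0353). Under R406 it fell by 0.86 ± 0.0553 relative to curdlan alone (adjusted p = 0.00304) and by 0.40 ± 0.0553 relative to control (adjusted p = 0.0398). The rise with curdlan did not pass without any 1 of the 6 arrays, at adjusted p of 0.109 to 0.183, nor did the difference from control, at 0.0907 to 0.235. With the replicate number as a block these were 0.101 and 0.0932, and in fits of only the 4 arrays compared 0.123 and 0.0907. With arrays centred on their median the difference from control had an adjusted p of 0.0521.

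Tigar (probe set 10865777) encodes a phosphatase that lowers fructose 2,6-bisphosphate and so turns glucose toward the pentose phosphate pathway, the opposite activity to that of Pfkfb3. Its signals nevertheless followed the same order, at 9.0 and 8.97 in control, 9.28 and 9.38 with curdlan and 8.65 and 8.68 under R406 plus curdlan. The groups did not overlap, beside 19.2% to 27.8% of all probe sets for each pair of groups in these directions. Tigar fell by 0.66 ± 0.0546 under R406 relative to curdlan alone, a 1.58-fold difference (adjusted p = 0.00568). This had an adjusted p of 0.0639 and 0.0604 without R406 plus curdlan replicates 1 and 2. Its change with curdlan was 0.35 ± 0.0546 and its difference from control under R406 -0.32 ± 0.0546, with adjusted p of 0.0612 and 0.0618. Both passed after quantile normalization, at 0.0436 and 0.0341, when dimmer probe sets were left out, at 0.0107 and 0.0119, and with a trended prior, at 0.0130 and 0.0158.

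Pfkfb1 (probe set 10932917), known as the liver and muscle isoform, went the other way. Its signals were 9.02 and 8.89 in control, 9.02 and 9.03 with curdlan and 9.52 and 9.59 under R406 plus curdlan, so that control and curdlan arrays were close while the R406 plus curdlan arrays lay above both. It rose by 0.53 ± 0.0614 relative to curdlan alone (adjusted p = 0.0127) and by 0.60 ± 0.0614, or 1.51-fold, relative to control (adjusted p = 0.0207). The first difference had adjusted p of 0.0694 to 0.104 without each of the curdlan and R406 plus curdlan arrays. The second had 0.0638 to 0.180 without each of the 6 arrays, 0.0638 in the fit of 4 arrays and 0.0728 with the replicate block. Its change with curdlan was 0.07 ± 0.0614 (adjusted p = 0.694). Neither of the other isoforms passed: Pfkfb2 differed by 0.19 (95% interval 0.03 to 0.36, adjusted p = 0.174) and Pfkfb4 by -0.04 (-0.19 to 0.11, adjusted p = 0.747) between R406 plus curdlan and curdlan alone.

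**Figure D2:**
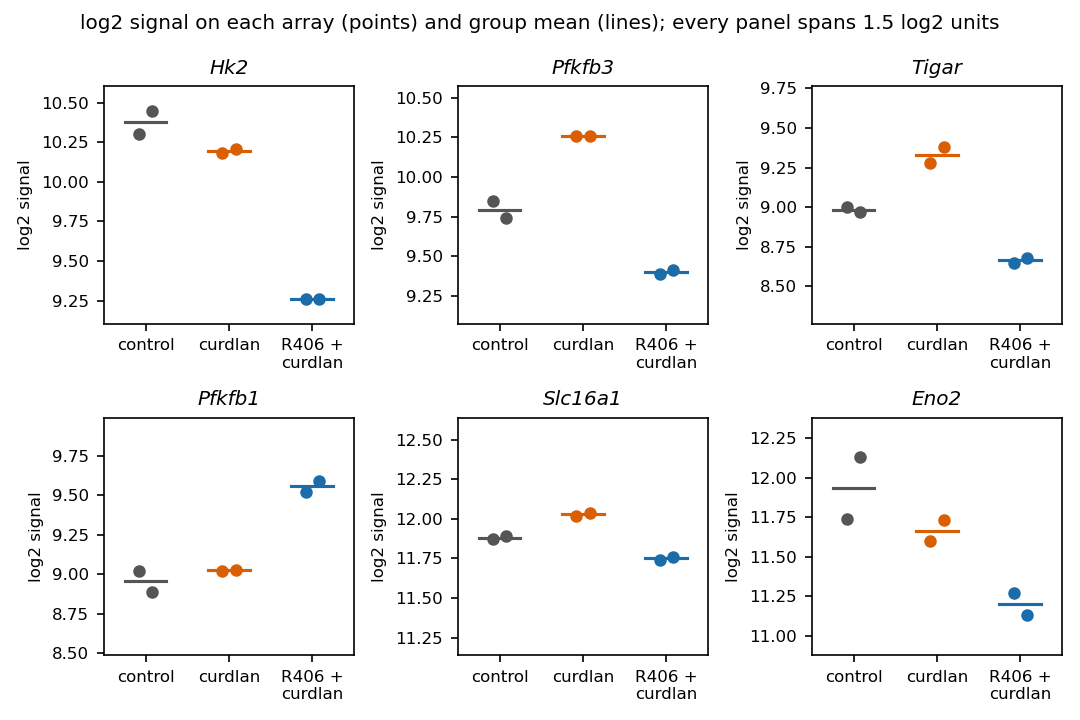
Each panel shows the log2 signal (y axis) of 1 gene on the 2 arrays of each group (points) with the group mean (line), and every panel spans the same range of 1.5 log2 units. Hk2 and Eno2 are lowest under R406 plus curdlan, Pfkfb3, Tigar and Slc16a1 are highest with curdlan alone, and Pfkfb1 is highest under R406 plus curdlan.

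Lactate and glucose cross the membrane by facilitated transport. Slc16a1 (probe set 10818090), which encodes the monocarboxylate transporter MCT1 for lactate and pyruvate, had signals of 11.87 and 11.89 in control, 12.02 and 12.04 with curdlan and 11.74 and 11.76 under R406 plus curdlan. The 3 groups did not overlap, in the same order as for Pfkfb3 and Tigar. For each pair of groups, 19.2% to 27.8% of all probe sets were apart in these directions. Slc16a1 fell by 0.29 ± 0.0436 under R406 relative to curdlan alone, a 1.22-fold difference (adjusted p = 0.0261). It did not pass in the fit of 4 arrays (0.0586), with the replicate block (0.0591) or without any 1 of the 6 arrays (0.0586 to 0.163). Its changes relative to control were 0.15 ± 0.0436 with curdlan (adjusted p = 0.21) and -0.13 ± 0.0436 under R406 (adjusted p = 0.188).

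The glucose transporter genes did not pass, although some alternatives called them. Slc2a3, which encodes the high-affinity transporter GLUT3, had signals of 13.57 and 13.63 in control, 13.67 and 13.69 with curdlan and 13.51 and 13.53 under R406 plus curdlan. That difference between R406 plus curdlan and curdlan alone was -0.16 (95% interval -0.28 to -0.04, adjusted p = 0.128), and it was called lower with dimmer probe sets left out and with a trended prior. Slc2a1, which encodes the basal transporter GLUT1, was highest in control at 13.41 and 13.53, with 13.30 and 13.32 with curdlan and 13.25 and 13.23 under R406 plus curdlan. Its change with curdlan was -0.16 (-0.31 to -0.02, adjusted p = 0.296) and its difference from control under R406 -0.24 (-0.38 to -0.09, adjusted p = 0.116). The latter was called in the same 2 settings, and the former with the trended prior. Slc16a3, the gene of the lactate exporter MCT4, lay below the array median at 6.53 to 6.84.

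The 4 genes lower under R406 are shown by the bases before a transcription start listed by RefSeq, because all 4 were called in that comparison; with curdlan Hk2 had the opposite sign to the other 3. Each line gives 250 bases 5′ to 3′ on the gene's strand in build GRCr8, and for Pfkfb3, Tigar and Slc16a1 the listed start lies inside the span of the gene. Capitals mark CACGTG, the E-box bound by MYC and USF proteins, or GCGTG, a core that HIF proteins can bind, on either strand. The motifs can share bases but neither contains the other. Other cores, among them the ACGTG within CACGTG, were not searched on their own, so the marks do not tell which proteins can bind.
Hk2 (chr4:116841276-116841525, minus strand): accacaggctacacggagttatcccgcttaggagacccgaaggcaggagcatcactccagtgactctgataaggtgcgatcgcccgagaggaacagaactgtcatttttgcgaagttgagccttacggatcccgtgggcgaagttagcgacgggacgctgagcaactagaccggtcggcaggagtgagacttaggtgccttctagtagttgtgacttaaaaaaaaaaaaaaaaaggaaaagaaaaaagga
Pfkfb3 (chr17:71944683-71944932, plus strand): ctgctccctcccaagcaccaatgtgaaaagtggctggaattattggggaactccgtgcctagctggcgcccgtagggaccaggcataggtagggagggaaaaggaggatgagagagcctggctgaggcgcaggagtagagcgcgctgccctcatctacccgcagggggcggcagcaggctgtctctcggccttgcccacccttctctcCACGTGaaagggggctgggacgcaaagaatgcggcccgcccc
Tigar (chr4:161632230-161632479, minus strand): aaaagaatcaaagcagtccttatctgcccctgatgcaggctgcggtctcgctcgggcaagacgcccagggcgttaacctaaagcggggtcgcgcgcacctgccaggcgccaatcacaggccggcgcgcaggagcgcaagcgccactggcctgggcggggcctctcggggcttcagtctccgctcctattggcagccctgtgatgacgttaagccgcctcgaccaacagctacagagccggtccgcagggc
Slc16a1 (chr2:194812410-194812659, plus strand): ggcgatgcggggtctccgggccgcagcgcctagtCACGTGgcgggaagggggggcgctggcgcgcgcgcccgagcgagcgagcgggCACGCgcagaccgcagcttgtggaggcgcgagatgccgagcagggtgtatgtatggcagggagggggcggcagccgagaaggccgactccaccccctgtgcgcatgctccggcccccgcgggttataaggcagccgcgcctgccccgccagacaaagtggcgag
In these windows CACGTG stood 42 to 37 bases before the Pfkfb3 start and 216 to 211 bases before the Slc16a1 start, and GCGTG, as its reverse complement, 164 to 160 bases before the Slc16a1 start. The windows of Hk2 and Tigar held neither set of letters, which says nothing about binding there or elsewhere. RefSeq listed 36 starts for 32 of the 34 genes. CACGTG was found before 5 of these, 13.9% (those of Ldha, Pdhb, Pdk2, Pfkfb3 and Slc16a1), and before 5.59% of 33469 starts in all. GCGTG was found before 15 of the 36, 41.7%, and before 25.9% of all. Both motifs are rich in G and C, which made up 49.6% (Hk2) to 74.0% (Slc16a1) of the 4 windows. The starts were not matched for base content, so these shares do not test enrichment.

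In the upper part of glycolysis, from glucose 6-phosphate to triose phosphates, 0 of 7 genes passed in any comparison of the 6-array limma fit. Of all probe sets 1.59%, 7.25% and 2.23% were called with curdlan, between R406 plus curdlan and curdlan, and between R406 plus curdlan and control. At an unadjusted limma p under 0.05 there were 1, 0 and 2 of the 7 in the same order, beside 14.4%, 22% and 20.4%. With 7 genes, such counts are near those shares. With curdlan all 7 had changes below 0, from -0.16 for Aldoc to -0.03 for Pfkp, and adjusted p of 0.31 to 0.821. Changes below 0 were also found for 28 of all 34 genes and 58.4% of all named genes. The phosphofructokinase genes Pfkl, Pfkm and Pfkp, whose products are the targets of fructose 2,6-bisphosphate, had changes of -0.07 ± 0.058, -0.15 ± 0.0558 and -0.03 ± 0.0459. Pfkm, the muscle form, had signals of 11.22 and 11.12 in control, 11.04 and 10.99 with curdlan and 11.02 on both R406 plus curdlan arrays. Tpi1, the gene of triosephosphate isomerase, differed by 0.12 ± 0.0484 between R406 plus curdlan and curdlan alone (adjusted p = 0.243, but called with a trended prior), with 13.74 on both curdlan arrays and 13.84 and 13.88 under R406. The isomerase gene Gpi ranged from 13.74 to 13.83 and the aldolase gene Aldoa from 13.84 to 13.93 over all arrays.

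In the lower part, 0 of 6 genes passed in the limma fit, beside 1.59%, 7.25% and 2.23% of all probe sets in the 3 comparisons. Eno2 alone had an unadjusted limma p under 0.05, in the 2 comparisons with R406, beside 22% and 20.4% of all probe sets. The other 5 differed by at most 0.11 in any comparison. Gapdh, often used as a reference transcript, lay between 14.31 and 14.33 on every array, with a change of 0.01 (95% interval -0.10 to 0.11) with curdlan. Eno1, the main enolase gene, lay between 14.07 and 14.09, and Pkm, the pyruvate kinase gene, between 13.44 and 13.53. Pgk1, which encodes phosphoglycerate kinase, ranged from 12.37 to 12.60 with overlapping groups. The exception was Eno2, the enolase gene first known from neurons (probe set 10865502), at 11.74 and 12.13 in control, 11.60 and 11.73 with curdlan and 11.27 and 11.13 under R406 plus curdlan. Its difference from control under R406 was the second in size among the 34 genes, at -0.73, but the control arrays lay 0.39 apart and the SE was 0.141. It did not pass (95% interval -1.09 to -0.38, adjusted p = 0.0747), except among probe sets above the median signal and with a trended prior. Relative to curdlan alone Eno2 differed by -0.47 ± 0.141 (adjusted p = 0.136) and was called lower only with the trended prior.

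Several of the lower enzymes were read by more than 1 probe set, which gives a repeat within the same RNA. The 16 probe sets annotated as Gapdh had changes of 0.00 to 0.02 with curdlan and of -0.01 to 0.01 between R406 plus curdlan and curdlan alone, and 0 of them passed. The 3 of Eno1 had -0.01 to 0.00 and -0.01 to 0.01, and the 3 of Pkm -0.07 to -0.04 and 0.01 to 0.02. Gapdh, Eno1, Pkm, Pgam1 and Ldha have many near-identical processed copies in the genome, so which locus such a probe set reads is uncertain. Probe sets disagreed most for Pgam1, the phosphoglycerate mutase gene, where the brighter set differed from control under R406 by -0.06 ± 0.0452 and the dimmer by -0.26 ± 0.0526 (adjusted p = 0.499 and 0.0822). For 9 genes, Gpi, Aldoa, Tpi1, Gapdh, Pgam1, Eno1, Pkm, Ldha and Slc2a3, the mean signal lay within 1 log2 unit of the highest on the arrays, 14.37 to 14.41, and whether the scale compresses changes there was not tested.

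**Figure D3:**
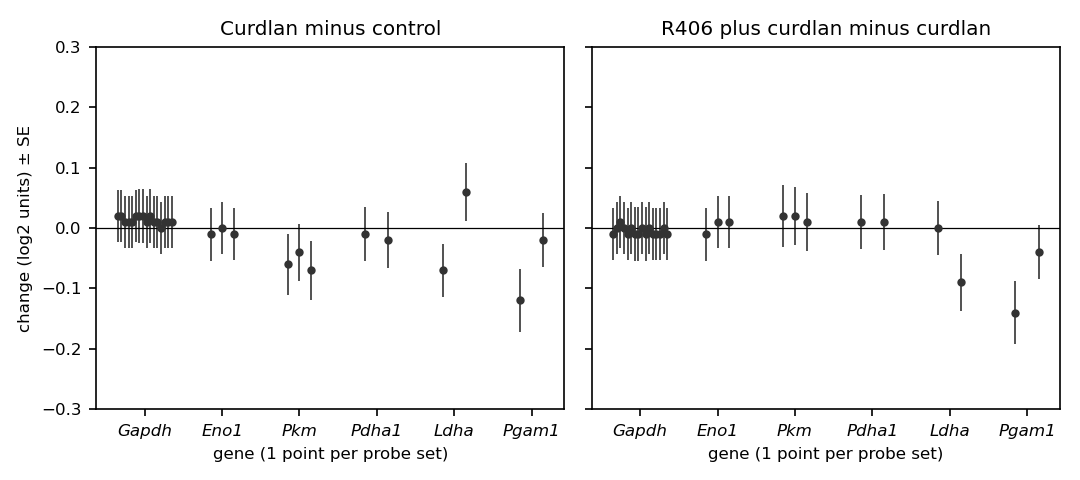
Each point is 1 probe set of a gene read by several probe sets (x axis), with its change in log2 units and SE (y axis), for curdlan minus control on the left and R406 plus curdlan minus curdlan on the right. The 16 Gapdh probe sets lie between -0.01 and 0.02, and the sets of Ldha and Pgam1 spread more widely.

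Pyruvate is turned into lactate by lactate dehydrogenase. Ldha, the gene of its A subunit, had signals of 14.16 and 14.19 in control, 14.11 and 14.10 with curdlan and 14.12 and 14.10 under R406 plus curdlan, and its change with curdlan was -0.07 (95% interval -0.18 to 0.04, adjusted p = 0.565). Ldhb, the gene of the B subunit, lay below the array median at 6.15 to 6.53 and did not pass. Pyruvate dehydrogenase is switched off by its kinases, the PDK enzymes. Pdk2 had signals of 7.40 and 7.25 in control, 7.29 and 7.34 with curdlan and 7.64 and 7.53 under R406 plus curdlan, where both arrays were above all others. Its difference between R406 plus curdlan and curdlan alone was 0.28 ± 0.0721 (95% interval 0.09 to 0.46, adjusted p = 0.0989), and it was called with dimmer probe sets left out. Pdk3 had 0.15 (0.00 to 0.29, adjusted p = 0.215), and Pdk4, a kinase gene known to be induced by fasting, had -0.08 (-0.36 to 0.19, adjusted p = 0.715) at signals of 5.43 to 5.81.

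The genes of the dehydrogenase itself stayed close together. Pdha1 ranged from 12.32 to 12.38 and Pdhb from 10.55 to 10.65 over all arrays. In the pentose phosphate pathway, which makes NADPH and ribose, the transaldolase gene Taldo1 ranged from 10.82 to 10.99 and the transketolase gene Tkt from 12.82 to 12.88. The largest difference of either was 0.10 ± 0.0551, for Taldo1 between R406 plus curdlan and curdlan alone (adjusted p = 0.382).

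**Figure D4:**
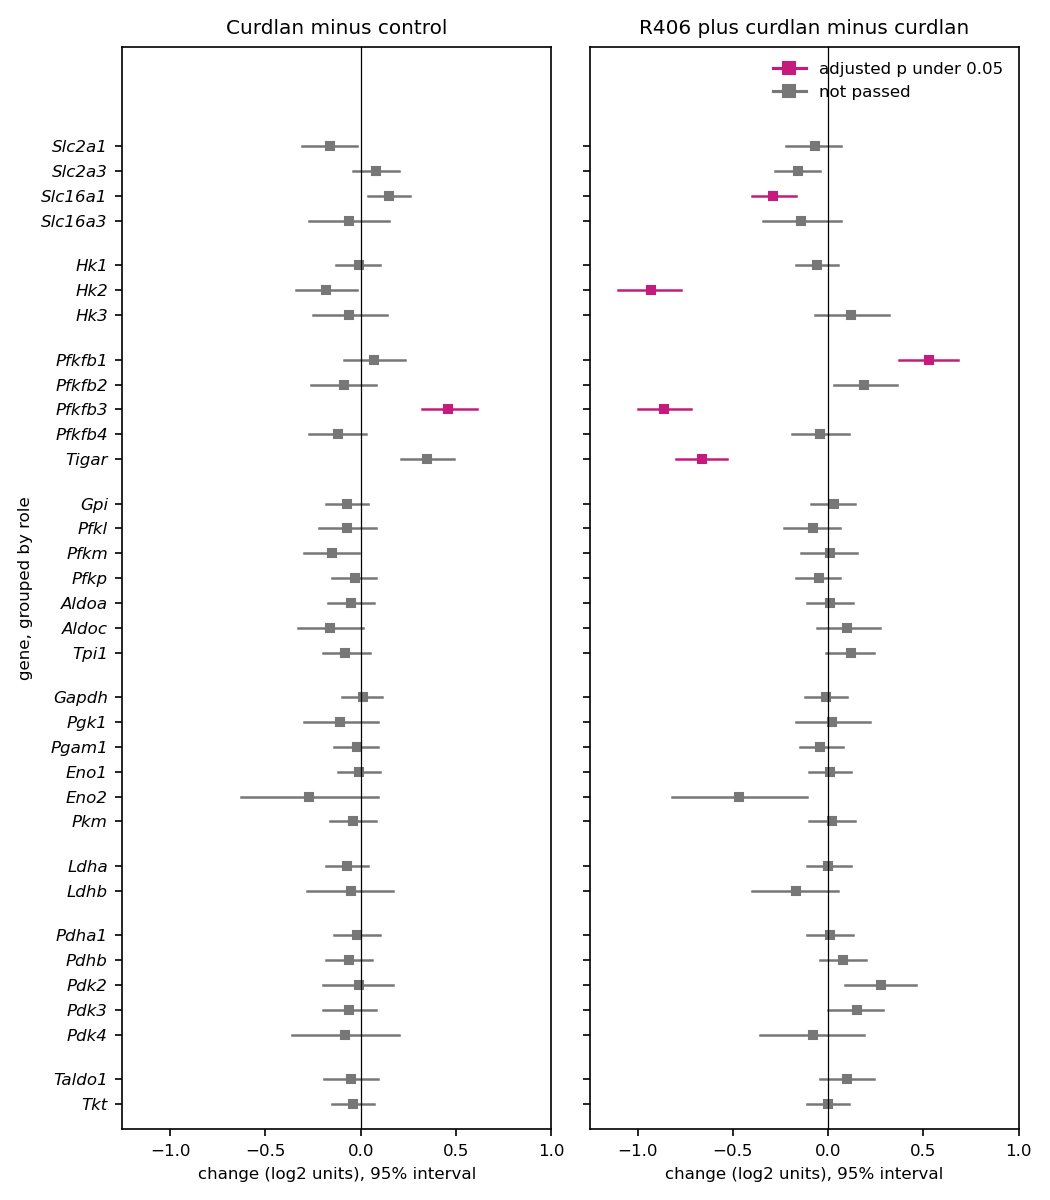
Squares are changes in log2 units and lines their 95% intervals (x axis) for 34 genes grouped by role (y axis), for curdlan minus control on the left and R406 plus curdlan minus curdlan on the right. Genes with an adjusted p under 0.05 are in magenta: Pfkfb3 on the left, and Hk2, Pfkfb3, Tigar, Slc16a1 and Pfkfb1 on the right.

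Below the threshold, small changes with curdlan were mostly of 1 sign. Of the 34 genes 28 had a change below 0 with curdlan, with a median of -0.055, beside 58.4% of all named genes and a median of -0.020. The curdlan arrays lay wholly below the control arrays for 17 genes and wholly above for 6, while among all probe sets these shares were 23.9% and 19.2%. After quantile normalization or centring of arrays on their median the number below 0 was again 28, with medians of -0.046 and -0.051. The 17 measured genes of the tricarboxylic acid cycle included 15 below 0 and a median of -0.052, and 14 of them were above 0 between R406 plus curdlan and curdlan alone, with a median of 0.058. Between R406 plus curdlan and curdlan alone the 34 genes were split 17 and 17, with a median of 0.001, and 11 lay wholly above and 14 wholly below the curdlan arrays, beside 27.7% and 25.6% of all probe sets. Relative to control under R406 26 were below 0 (25 after quantile normalization and 22 with centred arrays), and their medians were -0.064, -0.064 and -0.039; 19 lay wholly below and 4 wholly above the control arrays, beside 27.8% and 25.7% of all probe sets. Of all named genes 56.4% were below 0 in that comparison, or 48.2% with centred arrays, and of those above the median signal 46.1%. Changes of this size are close to the model SE of these genes, which lay at or above 0.0425. That SE is partly borrowed from the spread of all probe sets. Arrays of a group can lie closer together, as for Gapdh, with within-group standard deviations of 0.000849 to 0.00629. The changes are given as a description.

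Companion lists of related pathways had called shares of 5.26% to 12.5% between R406 plus curdlan and curdlan alone in the 5 lists with a call, beside 7.25% of all probe sets. Of 19 other genes of glycolysis and gluconeogenesis 1 passed, Pgam5, which encodes a mitochondrial phosphatase of the mutase family rather than a glycolytic enzyme, and which fell by 0.42 ± 0.0449 under R406 relative to curdlan alone (adjusted p = 0.0105). Of 10 other pentose phosphate genes Shpk, the sedoheptulokinase gene, rose by 0.40 ± 0.0626 in that comparison (adjusted p = 0.0279). Of 16 other transporters Slc2a4, which encodes the insulin-regulated transporter GLUT4, rose by 0.46 ± 0.0772 (adjusted p = 0.0332) and Slc16a6 fell by 0.64 ± 0.0874 (adjusted p = 0.0198). Of 18 genes of glycogen and hexosamine branches Oga, whose enzyme removes O-linked N-acetylglucosamine from proteins, rose by 0.62 ± 0.0502 (adjusted p = 0.0054), and it was also higher than in control, by 0.72 ± 0.0502 (adjusted p = 0.0103). Of 17 genes of the tricarboxylic acid cycle list Idh1, a cytosolic NADPH-producing enzyme gene, rose by 0.31 ± 0.0451 (adjusted p = 0.023). Of 19 other pyruvate genes 0 passed between R406 plus curdlan and curdlan alone, but Pdp1, the phosphatase that switches pyruvate dehydrogenase on, was higher under R406 plus curdlan than in control by 0.52 ± 0.057 (adjusted p = 0.0247). Oga and Pdp1 were the only genes of these 6 lists called against control under R406. They made up 5.56% and 5.26% of their lists, beside 2.23% of all probe sets. With curdlan alone 0 genes of these 6 lists passed (limma), beside 1.59% of all probe sets, with 0 to 5 genes a list at an unadjusted p under 0.05.

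Some regulators known to act on these genes were also called. Myc, which encodes an activator of Hk2 and Ldha, had signals of 11.65 and 11.51 in control, 12.14 and 12.13 with curdlan and 8.29 and 8.12 under R406 plus curdlan. Txnip, whose product restrains glucose uptake, had 8.71 and 8.67, 8.41 and 8.49, and 10.63 and 10.58. Hif1a, the gene of the hypoxia factor subunit, had 12.37 and 12.36, 12.43 and 12.50, and 12.15 and 12.18. Foxo1 had 10.25 and 10.35, 10.92 and 10.95, and 10.17 and 10.14, and Foxo3 had 10.74 and 10.98, 10.20 and 10.29, and 10.85 and 10.88. The 18 measured regulators were listed with earlier results of these data known, so their called share does not test them as a group. Under R406 relative to curdlan alone 2 of them were higher, Txnip and Foxo3, and 3 lower, Myc, Hif1a and Foxo1. The other 13 did not pass. That is a share of 27.8%, beside 7.25% of all probe sets (4.02% higher and 3.23% lower) and 9.18% of all named genes. With curdlan 1 of the 18 regulators rose, Foxo1, by 0.64 ± 0.0543 (adjusted p = 0.0163), beside 1.59% of all probe sets called. Relative to control under R406 3 of the 18 were called, 16.7% beside 2.23% of all probe sets. Myc was lower by 3.38 ± 0.0807 (limma adjusted p = 0.000583). Txnip and Klf10 were higher, by 1.92 ± 0.0538 and 0.37 ± 0.0545 (adjusted p = 0.000987 and 0.0445). Whether these factors had a part in the changes of Hk2, Pfkfb3, Tigar, Slc16a1 or Pfkfb1 was not tested.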

How the data were processed

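Total RNA was read for 6 samples on Affymetrix rat arrays. The deposited values are log2 signals, 1 for each probe set on each array, for which the submitters' processing notes name Affymetrix Expression Console; its version, settings and genome build were not given in the sources used here. Their base was inferred from the range of the values. Of 29214 probe sets 15310 had 1 gene symbol, 323 several and 13581 none. All arrays were fitted in 1 model of 3 groups without further filter (R 4.3.3, limma 3.58.1, lmFit and eBayes; 3 residual and 2.16 prior degrees of freedom), and p-values were adjusted by Benjamini-Hochberg over all probe sets. The code was tested on simulated data. All 34 genes could be named, those called with every array's value, and of the companion lists the genes called in some comparison. Members and lists were chosen with earlier results of these data known. Promoters came from RefSeq (GRCr8), matched by gene ID. Alternatives were other scalings, a signal filter, fits of 4 arrays, a replicate block, leaving out arrays, averaged probe sets and a trended prior. The number of arrays limits precision.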

Additional observations from a re-analysis of the deposited data

How the results depend on the processing

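No change of Hk2, Pfkfb3, Tigar, Slc16a1 or Pfkfb1 reversed its sign under any alternative. Of the 5 genes called between R406 plus curdlan and curdlan alone, Hk2 and Pfkfb3 passed in all 6 fits that left out 1 array and 4 genes, all but Slc16a1, in all 7 other alternatives. The numbers higher and lower there were 1 and 4, with 0 to 1 and 2 to 3 when an array was left out, 2 higher among probe sets above the median signal and 2 higher with a trended prior. With curdlan the number higher was 1, and it was 2 after quantile normalization, 3 above the median signal, 3 with a trended prior, 0 in the fit of 4 arrays, 0 with the replicate block and 0 without any 1 array; the number lower was 0, and 1 with the trended prior, Slc2a1. Relative to control under R406 the number higher was 1, with 0 in the fit of 4 arrays, with the replicate block and without any 1 array. The number lower was 2, with 3 after quantile normalization, 1 after centring arrays and 5 above the median signal. It was 1 in the fit of 4 arrays, 1 with the replicate block and 6 with the trended prior. Fits without an array have 2 residual degrees of freedom, and a lone array is assumed to vary like the other groups. Leaving out either array of the group not compared gives the same result as the fit of 4 arrays. Those 3 alternatives are therefore 1 check for each comparison, here and in the values given for single genes. Over all probe sets the calls in the 3 comparisons, in the order of the report, were 465, 2118 and 652, beside 1557, 3767 and 2341 with a trended prior, 1572, 3717 and 2278 above the median signal, 68, 1232 and 182 in fits of 4 arrays, and 102, 1129 and 62 with the replicate block. Without 1 array they were 32 to 68, 210 to 1232 and 15 to 182. Equal replicate numbers are not known to pair arrays: deviations of equally numbered arrays correlated at -0.11 between control and curdlan, 0.11 between curdlan and R406 plus curdlan, and 0.00 between control and R406 plus curdlan. The cause of these differences between settings was not tested.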
